A study of Homo sapiens with 54 samples.

Results

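JUN, JUNB and JUND, which encode the Jun proteins of the transcription factor AP-1, were followed through 53 RNA-seq libraries of striatal-type neurons exposed to dopamine or dopamine receptor agonists. The 3 genes were taken by name from the 60676 genes listed for each library, and each name matched a single Ensembl gene. The rule used no measured value, but earlier results of these data were known when it was chosen. The cells were hMSN-like cells, cultures differentiated toward striatal medium spiny neurons (MSNs) from H9 (WA09), a human embryonic stem cell line, and the 18 conditions formed 4 experiments. In the 1 mM and the 1 µM experiment, cultures received PBS, a single dose of dopamine (Acute) or repeated daily doses of dopamine over 5 days (Chronic), and RNA was collected at 1 h or at 24 h from the final dose. In the time course, 2, 3, 4 or 5 daily doses of 1 mM dopamine (2 Day to 5 Day) were set against an ascorbic acid vehicle (AA). In the agonist experiment, 50 µM SKF82958, an agonist of D1-like dopamine receptors, and 50 µM quinpirole, an agonist of D2-like receptors, were set against water. Each condition had 3 libraries labelled as replicates, except 5 Day with 2, and since neither labels nor methods tie them to separate differentiations, p-values measure the spread between libraries, which may be technical.

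The model has limits that touch every comparison below. All libraries came from a single stem cell line. The methods dissolved dopamine in ascorbic acid, and the sources used here do not say whether the PBS controls of the dose experiments contained it, so dopamine and ascorbic acid cannot be told apart there. Acute doses were given at a younger culture age than Chronic doses, so dosing and age cannot be told apart either, and the age of the PBS cultures is not given in the sources used here. In bulk RNA, fewer cells of a type and less RNA per cell cannot be told apart.

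AP-1 binds DNA as a dimer, either of Jun proteins alone or of a Jun protein with a partner such as a FOS or ATF protein. Jun proteins are phosphorylated by the Jun N-terminal kinases (JNKs), and the 3 Jun proteins differ in how strongly they activate transcription. JUN and JUNB are known as immediate early genes, transcribed within minutes of a stimulus in neurons and other cells, while JUND is known for steady expression in many tissues.

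JUN (ENSG00000177606) lies on the minus strand of chr1:58780791-58784047 (GRCh38), JUNB (ENSG00000171223) on the plus strand of chr19:12791486-12793315 and JUND (ENSG00000130522) on the minus strand of chr19:18279694-18281622. JUN and JUNB have a single annotated exon each and no intron, and JUND has 3 annotated exons that together fill its whole length. The exon length was 3257 bases for JUN, 1830 for JUNB and 1929 for JUND, and the share of G and C bases was 56.1%, 64.9% and 69.9%. The members held 374794 exon reads and 221 intron reads over all libraries, and 99.8% of their exon reads mapped uniquely, so reads were seldom shared with another place in the genome.

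The 250 bases before each start site are shown because the members moved apart in these data and their windows hold different motifs. They are RefSeq sequence of GRCh38.p14, written 5′ to 3′ on the strand of the gene, for JUN chr1:58784048-58784297 (minus), for JUNB chr19:12791236-12791485 (plus) and for JUND chr19:18281623-18281872 (minus). Capitals mark matches to the motifs searched on both strands, which were the AP-1 site TGANTCA, the cAMP response element TGACGTCA, the AP-1-like TGACATCA of the JUN promoter, the CArG box bound by SRF, the GC box with the letters GGGCGG, the CCAAT box and the TATA box with the letters TATAAA.
JUN: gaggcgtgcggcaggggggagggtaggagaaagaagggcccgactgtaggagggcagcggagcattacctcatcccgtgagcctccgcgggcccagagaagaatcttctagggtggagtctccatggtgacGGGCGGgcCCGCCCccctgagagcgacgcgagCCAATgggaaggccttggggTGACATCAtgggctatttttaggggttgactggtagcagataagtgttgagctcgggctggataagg
JUNB: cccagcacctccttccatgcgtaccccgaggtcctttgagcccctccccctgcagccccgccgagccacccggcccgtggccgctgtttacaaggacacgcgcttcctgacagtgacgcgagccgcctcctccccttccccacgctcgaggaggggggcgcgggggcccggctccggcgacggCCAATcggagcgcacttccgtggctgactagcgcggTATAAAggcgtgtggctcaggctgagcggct
JUND: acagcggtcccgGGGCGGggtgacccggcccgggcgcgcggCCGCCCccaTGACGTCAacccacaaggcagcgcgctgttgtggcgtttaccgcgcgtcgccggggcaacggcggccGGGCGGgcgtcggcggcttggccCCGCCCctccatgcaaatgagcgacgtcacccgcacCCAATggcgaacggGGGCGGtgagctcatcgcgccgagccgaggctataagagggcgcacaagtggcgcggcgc
In the JUN window, TGACATCA lay 67 to 60 bases before the start, a motif found in 2.37% of 35116 promoter windows of the same length, beside 2 GC boxes and a CCAAT. The JUNB window held a CCAAT 67 to 63 bases and a TATAAA 31 to 26 bases before the start, motifs found in 11240 windows and in 10.7% of all windows. The JUND window held TGACGTCA 200 to 193 bases before the start, found in 1.65% of all windows, a CCAAT and 5 GC boxes, a motif found in 42.6%. TGANTCA (6.57% of all windows) and the CArG box (1.16%) were in none of the 3 windows. G and C made up 62.0% of the JUN window, 70.8% of the JUNB window and 74.8% of the JUND window, against a median of 58.0% over all windows. These matches describe letters, and neither binding nor a part of the motifs in the changes was tested.

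Between 5755919 and 27702963 exon reads fell on genes per library, apart from Quinpirole r1 with 137051. Levels are given as TPM, exon reads per exon length after scaling to an equal total per library, and at least 55 exon reads lay behind each member's value in the 52 libraries other than Quinpirole r1. Quinpirole r1 had 96.7% of its gene reads in introns, against 12.3% to 31.2% in the others, and held 0, 6 and 14 exon reads of JUN, JUNB and JUND. There, 0 reads allow a JUN level of up to 29.7 TPM (3 reads, counting error only). At 1 mM, introns took 12.3% to 15.9% of gene reads in the Acute libraries and 18.9% to 22.4% in the PBS and Chronic libraries. That difference runs along every comparison of Acute with PBS or Chronic at 1 mM, and its part in the changes was not tested. The 1 mM Acute 24 h r1 library stood apart from the other libraries of its condition in JUN, and the second libraries of 1 µM PBS, 1 µM Acute 1 h and 1 µM Chronic 1 h were low in genes rich in G and C. Results that rest on these libraries are given with and without them. Of the marker lists, neuron markers summed to 1840 to 4225 TPM and striatal neuron markers to 88.0 to 262 TPM in the libraries other than Quinpirole r1, beside 374 to 1593 TPM of cycling progenitor markers, 234 to 698 of astrocyte and radial glia markers and 28.1 to 308 of mesenchymal markers. In the striatal list, BCL11B (median 44.6 TPM) and MEIS2 (33.9) were highest, and PPP1R1B, which encodes DARPP32, had a median of 14.4. The lowest medians were those of DRD1 (1.63), ADORA2A (2.79), FOXP1 (2.98) and DRD2 (3.69). Medial ganglionic eminence markers summed to 0 to 62.0 TPM, mostly from SST (median 18.5). Endothelial (1.02 to 24.7), microglial (0 to 3.15) and pluripotent (0 to 2.00) marker sums were low. In the cycling progenitor list, SOX2 had the highest median (505 TPM), above TOP2A (224), CCNB1 (110), MKI67 (76.7) and PAX6 (56.8). SOX2 and PAX6 are not cell cycle genes, so that sum does not measure dividing cells alone.

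**Figure D1:**
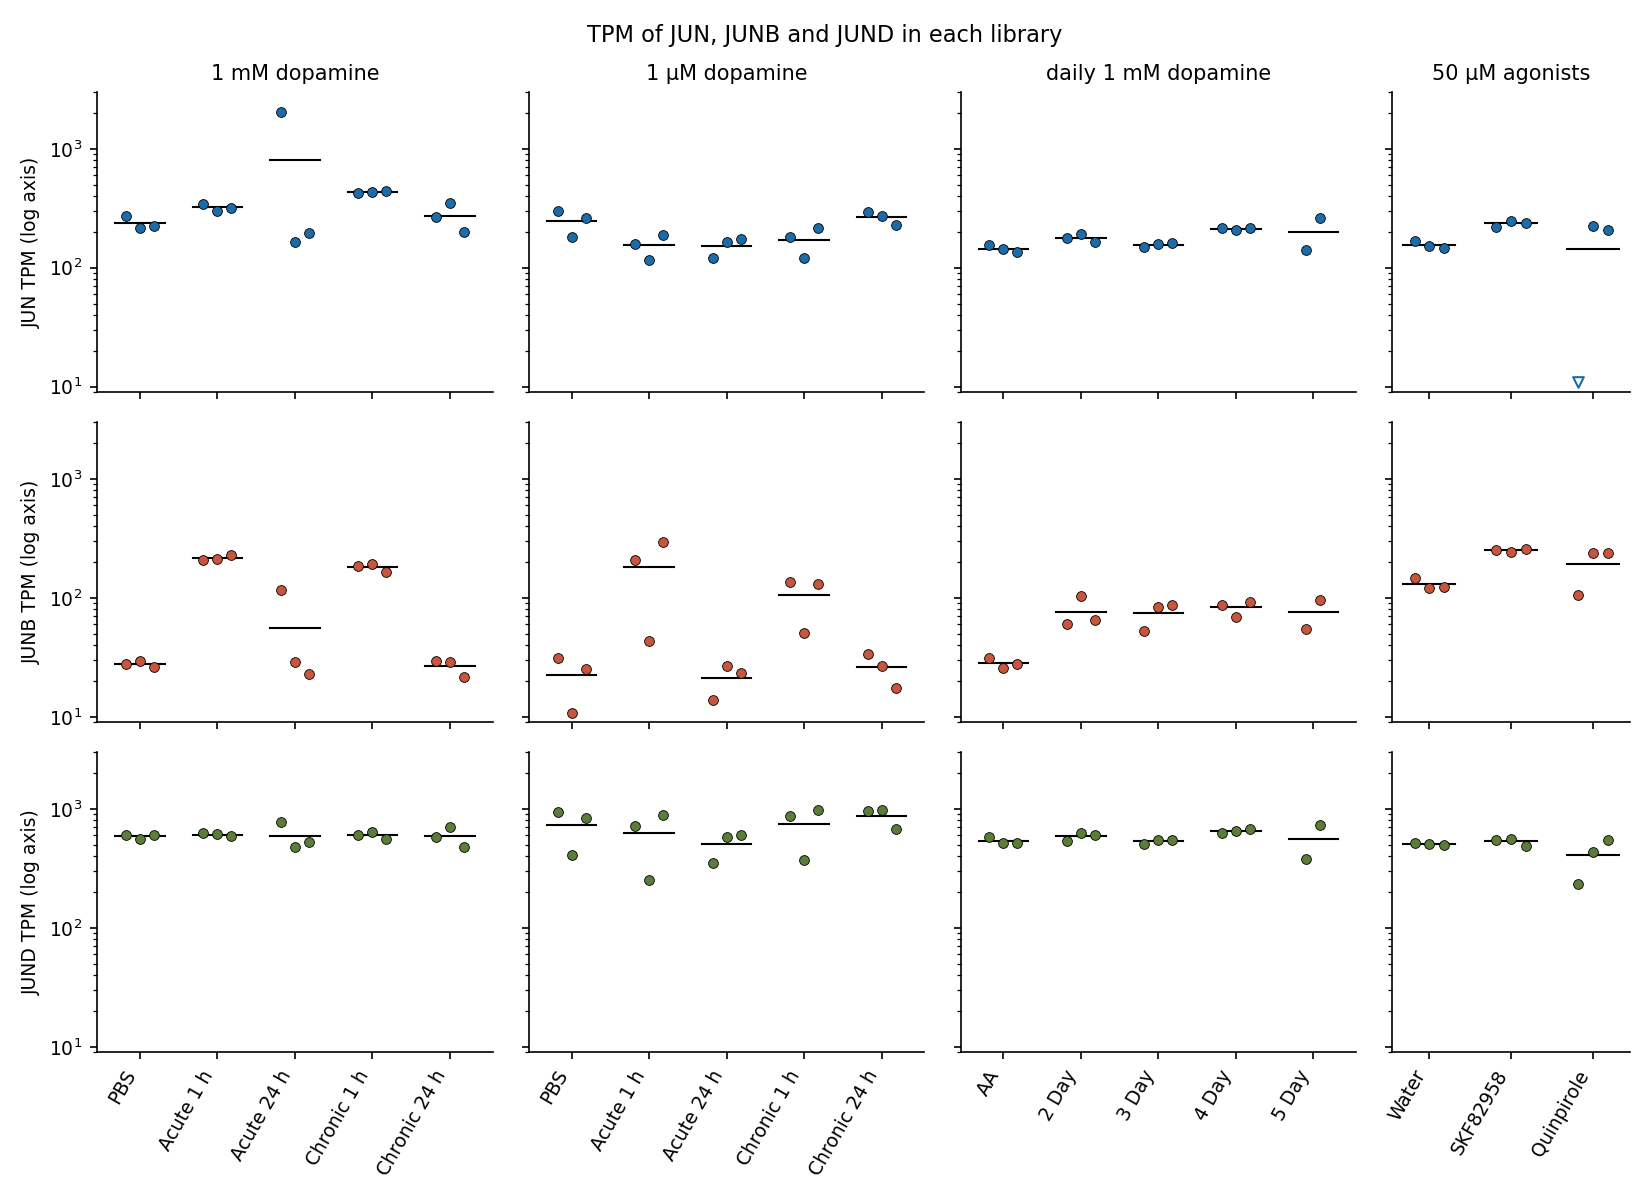
TPM of JUN (top), JUNB (middle) and JUND (bottom) in each library on a log axis, by condition and experiment, with a point per library and a line at the mean of the condition. JUNB stood near 28 TPM in the 1 mM PBS libraries and above 160 in the Acute 1 h and Chronic 1 h libraries, while JUND lay between 480.2 and 772 TPM in the 1 mM experiment, and the open triangle marks Quinpirole r1, in which JUN had 0 reads.

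JUNB changed most. It rose 1 h after dopamine at both doses and after both acute and chronic dosing, overlapped the PBS libraries again at 24 h, and rose in every group of the time course. JunB is an AP-1 subunit that activates transcription less strongly than JUN at many promoters. In the 1 mM experiment, the PBS libraries had 27.8, 29.2 and 26.4 TPM of JUNB and the Acute 1 h libraries 208, 211 and 230.0 TPM. The groups lay far apart, with a log2(fold change) of 3.02 ± 0.41 (SE, edgeR's quasi-likelihood test, adjusted p = 0.000656). JUNB was the 1 member of 3 that passed, where 16% of all 17804 genes tested passed and 8.04% passed upward. Chronic 1 h libraries held 184, 191 and 166 TPM, again all above PBS (2.65 ± 0.41, edgeR adjusted p = 0.00562), in a comparison in which 2.08% of all genes passed. The cycling progenitor marker sum was 1159 to 1210 TPM in PBS, 1087 to 1140.0 TPM at Acute 1 h and 890.1 to 930 TPM at Chronic 1 h, and its part in the JUNB change was not tested.

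Acute 24 h libraries had 117, 28.6 and 22.8 TPM, and the first of these also held the extreme JUN level described below. Chronic 24 h libraries had 29.4, 28.8 and 21.5 TPM, which overlapped the PBS libraries. JUNB did not pass against PBS at Acute 24 h (log2(fold change) 0.80 ± 0.40, edgeR adjusted p = 0.17, 15.5% of genes passed) or at Chronic 24 h (-0.09 ± 0.41, adjusted p = 0.979, 0.663% passed). The Acute 24 h value turned to -0.17 ± 0.14 without Acute 24 h r1 (adjusted p = 0.402), and it was 1.17 and passed without Acute 24 h r3 (adjusted p = 0.0275). Set directly against 1 h, it fell by 2.22 ± 0.40 on the log2 scale after acute dosing (edgeR adjusted p = 0.0135, 3.49% of genes passed) and by 2.75 ± 0.41 after chronic dosing (adjusted p = 0.00905, 0.359% passed). Without Acute 24 h r1 the acute value was -3.17 ± 0.13 (adjusted p = 5.61e-10, 9.3% of genes passed). The acute call was lost without Acute 1 h r2 (-2.23, adjusted p = 0.0545) or r3 (-2.16, adjusted p = 0.0591), and the chronic call without any 1 of the Chronic 24 h libraries (-2.82 to -2.61, adjusted p = 0.0536 to 0.0698).

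In the 1 µM experiment the JUNB levels were 31.1, 10.7 and 25.1 TPM in PBS, 208, 43.1 and 295 TPM at Acute 1 h and 135, 50.4 and 129.9 TPM at Chronic 1 h. Every 1 h library lay above every PBS library, although the second library of each group was the lowest of its group. JUNB rose at Acute 1 h (log2(fold change) 3.02 ± 0.49, edgeR adjusted p = 0.00228) and at Chronic 1 h (2.29 ± 0.48, adjusted p = 0.0221), where 5.77% and 2.58% of 16541 genes passed. Without the 3 second libraries, an alternative chosen after the data were seen, the values were 3.21 ± 0.23 (adjusted p = 1.07e-06) and 2.31 ± 0.23 (adjusted p = 4.22e-05). The Chronic 1 h call was lost when Chronic 1 h r1, Chronic 1 h r3 or any 1 of the PBS libraries was left out (2.06 to 2.53, adjusted p = 0.0571 to 0.0947). In PBS, Acute 1 h and Chronic 1 h, libraries of the same number deviated together. Correlations between libraries of different numbers were not examined, so pairing cannot be told apart from the shared deviation of the second libraries. With only these 3 groups and the number as a block, also chosen after the data were seen, JUNB rose by 2.87 ± 0.26 (adjusted p = 5.09e-05) and 2.31 ± 0.25 (adjusted p = 0.000511). Without the block in these groups, the Chronic 1 h call was lost. With only the groups compared in a fit, both calls were lost.

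At 24 h after 1 µM dopamine, JUNB stood at 13.8, 26.6 and 23.4 TPM (Acute) and 33.8, 26.5 and 17.6 TPM (Chronic), both overlapping PBS. It did not pass against PBS at Acute 24 h (log2(fold change) -0.07 ± 0.48, edgeR adjusted p = 0.972, 3.31% of genes passed) or Chronic 24 h (0.24 ± 0.47, adjusted p = 0.9). In the last comparison 0 genes passed in edgeR, with 608 at an unadjusted p under 0.05. From 1 h to 24 h JUNB fell by 3.08 ± 0.49 after acute dosing (edgeR adjusted p = 0.00759, 0.592% of genes passed) and by 2.05 ± 0.47 after chronic dosing (adjusted p = 0.0374, 1.95% passed). The acute call was lost without any 1 of the Acute 24 h libraries (-3.25 to -2.92, adjusted p = 0.0519 to 0.069), and the chronic call was lost on leaving out 1 library in 11 of 15 cases (-2.26 to -1.88).

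The JUNB level 1 h after chronic dosing was set directly against that after acute dosing. At 1 mM the Chronic 1 h libraries (166 to 191 TPM) all lay below the Acute 1 h libraries (208 to 230.0 TPM), but the difference of -0.37 ± 0.38 on the log2 scale did not pass (edgeR adjusted p = 0.581, 11.3% of genes passed). It passed without the Acute 24 h r1 library, which is not in that comparison but shares its estimate of the spread (-0.35 ± 0.10, adjusted p = 0.0113, 34% of genes passed). At 1 µM the groups overlapped and the difference did not pass (-0.72 ± 0.45, adjusted p = 0.55, 1.2% of genes passed). Without the 3 second libraries it passed (-0.90 ± 0.21, adjusted p = 0.0262, 4.22% of genes passed), and with the block it did not (-0.56 ± 0.23, adjusted p = 0.207). An interaction term set the JUNB changes at the 2 doses against each other, and it was 0.02 ± 0.64 at Acute 1 h (edgeR adjusted p = 0.999, 2.01% of genes passed) and 0.35 ± 0.64 at Chronic 1 h (adjusted p = 0.963, 0.087% passed), so a difference between doses was not detectable, and errors of this size do not show that the doses acted alike.

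The AA libraries of the time course held 30.9, 25.7 and 27.8 TPM of JUNB. The level was 59.98, 104 and 64.5 TPM in the 2 Day libraries and 52.2, 84.3 and 87.8 TPM in the 3 Day libraries. It was 86.3, 69.5 and 92.9 TPM in the 4 Day libraries and 55.1 and 95.8 TPM in the pair of 5 Day libraries. All 11 dopamine libraries lay above the highest AA library, and the 4 dopamine groups overlapped each other. JUNB rose in each, with log2(fold change) values of 1.59 ± 0.23, 1.51 ± 0.24, 1.59 ± 0.24 and 1.53 ± 0.26 from 2 Day to 5 Day (edgeR adjusted p = 0.00185, 0.0016, 0.00154 and 0.00843), where 3.88%, 7.37%, 4.38% and 1.63% of 16768 genes passed. These 4 comparisons share the AA libraries. JUNB did not pass between neighbouring days (-0.08 to 0.08, adjusted p = 0.89 to 0.977), where 3.86%, 0.4% and 0.0179% of genes passed from the first pair of days to the last. Cycling progenitor markers summed to 949 to 1021 TPM in AA and to 610.1 to 931 TPM in the dopamine libraries, and their part in the JUNB change was not tested.

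The 5 Day group and the 1 mM Chronic 1 h group are both labelled 1 mM dopamine over 5 days with RNA taken 1 h after the last dose, in separate experiments with separate controls. Their JUNB changes were 1.53 and 2.65, and the difference of -1.13 ± 0.52 did not pass (interaction term, edgeR adjusted p = 0.352, 0.665% of genes passed). Without 1 mM Acute 24 h r1 it passed at -1.12 ± 0.30 (adjusted p = 0.0264), and the share of all genes that passed this term without that library is not given here. Leaving out that library also raised the share of all genes that passed at 1 mM Chronic 1 h against PBS, from 2.08% to 18.4%.

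In the agonist experiment the JUNB level in water was 146, 121 and 123 TPM, above every PBS and AA library of the other experiments. The experiments were separate, so that difference has no test. FOS, a partner of the Jun proteins, showed the same order, with 204 to 280 TPM in water against 12.6 to 19.1 TPM in 1 mM PBS. SKF82958 libraries held 251, 242 and 258 TPM of JUNB, all above water. Quinpirole libraries held 106, 238.3 and 238.4 TPM, the first of them from 6 reads. With all libraries, JUNB did not pass for SKF82958 (log2(fold change) 0.86 ± 0.47, edgeR adjusted p = 1, 0.0124% of 16132 genes passed, 185 genes at an unadjusted p under 0.05) or quinpirole (0.58 ± 0.48, adjusted p = 0.989, 0 genes passed, 350 at an unadjusted p under 0.05). Without Quinpirole r1, JUNB rose with both agonists, by 0.86 ± 0.09 for SKF82958 (adjusted p = 0.000134, 0.624% of genes passed) and 0.93 ± 0.10 for quinpirole (adjusted p = 0.000289, 0.184% passed). Both comparisons share the water libraries. The direct difference of SKF82958 and quinpirole was then -0.07 ± 0.10 (adjusted p = 0.998), and 0 genes passed in that comparison, with 242 at an unadjusted p under 0.05 when all libraries were used.

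**Figure D2:**
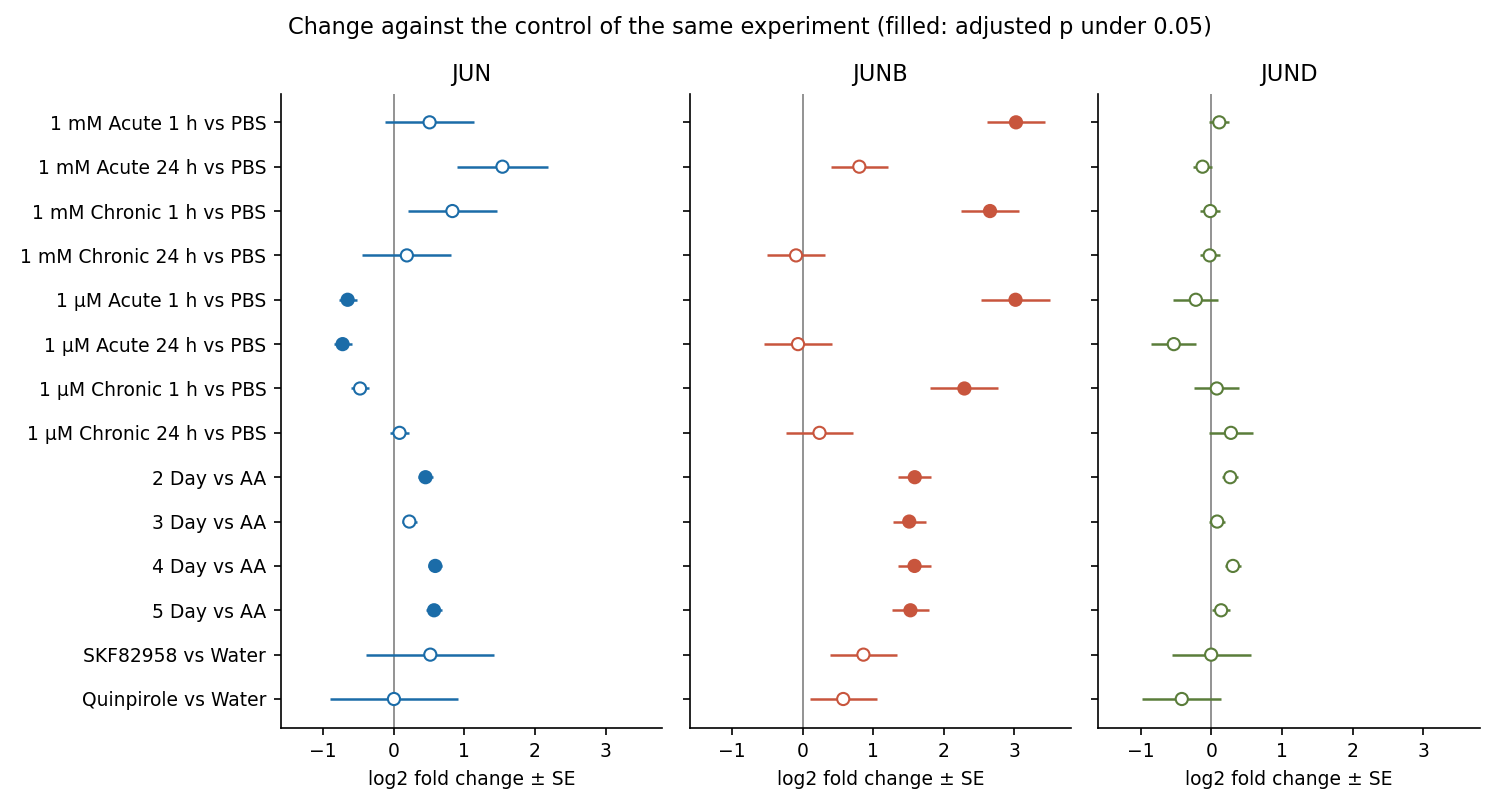
Log2(fold change) of JUN, JUNB and JUND against the control of the same experiment for 14 comparisons, from edgeR with all libraries, with bars of 1 SE and filled points where the adjusted p was under 0.05. JUNB passed in 8 comparisons, always upward, JUN in 5, upward in the time course and downward at 1 µM, and JUND in 0.

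JUN behaved differently from JUNB. c-Jun, its product, is the founding member of the family and the main target of the JNKs. JUN fell 1 h and 24 h after a single dose of 1 µM dopamine and rose at 2, 4 and 5 days in the time course. Most of these calls were lost in some alternative fits. At 1 mM its changes did not pass with all libraries, and the SE of 0.63 at Acute 1 h became 0.15 without a single library. In the 1 mM experiment the PBS libraries had 271, 214 and 224 TPM of JUN, the Acute 1 h libraries 342, 302 and 319 TPM and the Chronic 1 h libraries 424, 431 and 442 TPM. These 3 groups did not overlap. The Acute 24 h libraries held 2047, 164 and 197 TPM and the Chronic 24 h libraries 269, 351 and 199 TPM.

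The Acute 24 h r1 library, with 19883 exon reads of JUN, had by far the highest JUN level of all 53 libraries, followed by 442 TPM in Chronic 1 h r3. It also held the highest JUNB (117 TPM), FOS (67.3 TPM) and ATF3 (113 TPM) of the Acute 24 h libraries. Its neuron markers summed to 1840 TPM against 3161 and 3395 TPM in the other two, and their part in the JUN level was not tested. With all libraries, JUN did not pass at Acute 1 h (log2(fold change) 0.51 ± 0.63, edgeR adjusted p = 0.63), Acute 24 h (1.54 ± 0.65, adjusted p = 0.11), Chronic 1 h (0.83 ± 0.64, adjusted p = 0.577) or Chronic 24 h (0.19 ± 0.63, adjusted p = 0.973). Without that library, JUN rose at Acute 1 h (0.49 ± 0.15, adjusted p = 0.0152) and Chronic 1 h (0.83 ± 0.15, adjusted p = 0.00134), but the shares of all genes that passed also grew, to 39.8% and 18.4%. At Acute 24 h the value then turned from 1.54 to -0.44 ± 0.17 and did not pass (adjusted p = 0.0689), and it was 1.99 and passed without r2 (adjusted p = 0.0288) or r3 (adjusted p = 0.0273). From Acute 1 h to Acute 24 h the difference turned from 1.03 ± 0.64 (adjusted p = 0.288) to -0.93 ± 0.17 (adjusted p = 0.00318) without it, where 9.3% of all genes passed against 3.49% with it. From Chronic 1 h to Chronic 24 h JUN fell by 0.65 ± 0.15 without it (adjusted p = 0.0174), a comparison of groups that do not include that library. The share of all genes that passed there rose from 0.359% to 4.89%. Astrocyte and radial glia markers summed to 486 to 614 TPM in PBS, 475 to 530 TPM at Acute 1 h, 635 to 674 TPM at Chronic 1 h and 235 TPM in Acute 24 h r1, and their part in the JUN levels was not tested.

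At 1 µM, JUN stood at 299, 180 and 262 TPM in PBS, 159, 117 and 188 TPM at Acute 1 h and 121, 164 and 174 TPM at Acute 24 h. All Acute 24 h libraries lay below all PBS libraries, and of the Acute 1 h libraries only r3 reached above the lowest PBS library. JUN fell by 0.65 ± 0.13 at Acute 1 h (edgeR adjusted p = 0.00793) and by 0.73 ± 0.13 at Acute 24 h (adjusted p = 0.00784). The Acute 24 h call was lost without Acute 24 h r1 (-0.67, adjusted p = 0.0535). At Chronic 1 h the libraries held 182, 121 and 214 TPM and the value was -0.48 ± 0.13 (adjusted p = 0.0683), which passed without Acute 1 h r2 (-0.46, adjusted p = 0.0386) and without the 3 second libraries (-0.44, adjusted p = 0.0316). With only PBS, Acute 1 h and Chronic 1 h and the number as a block, JUN fell by 0.66 ± 0.10 at Acute 1 h (adjusted p = 0.00248) and by 0.47 ± 0.10 at Chronic 1 h (adjusted p = 0.0239). Without the block in these groups, JUN did not pass at Acute 1 h. The Acute 1 h call was also lost with only the groups compared in a fit. With total gene reads, the Acute 1 h and Acute 24 h calls were both lost. Chronic 24 h libraries, with 294, 272 and 228 TPM, were near PBS (0.08 ± 0.13, adjusted p = 0.876). JUN rose from Chronic 1 h to Chronic 24 h by 0.56 ± 0.13 (adjusted p = 0.0374), but this call was lost on leaving out 1 library in 13 of 15 cases (0.45 to 0.65). Astrocyte and radial glia markers summed to 402 to 437 TPM in PBS and 414 to 446 TPM at Chronic 24 h, and were lower at Acute 1 h (234 to 351 TPM), Acute 24 h (307 to 326 TPM) and Chronic 1 h (323 to 354 TPM). Their part in the JUN changes was not tested.

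JUN values lay on opposite sides of PBS at the 2 doses 1 h after dopamine. The difference between doses, tested with an interaction term, was 1.18 ± 0.66 at Acute 1 h (edgeR adjusted p = 0.423, 2.01% of genes passed). At Chronic 1 h it was 1.29 ± 0.66 (adjusted p = 0.653, 0.087% passed), and neither passed. Each dose had its own experiment, so these terms do not separate dose from experiment. Without 1 mM Acute 24 h r1 both passed, at 1.18 ± 0.21 (adjusted p = 0.00157) and 1.29 ± 0.21 (adjusted p = 0.00249). The shares of all genes that passed these terms without it are not given here, so the calls have no background beside them. Leaving out that library also raised the share of all genes that passed against PBS at 1 mM. It went from 16% to 39.8% at Acute 1 h and from 2.08% to 18.4% at Chronic 1 h. At Acute 24 h the difference was 2.24 ± 0.67 (adjusted p = 0.12) and rested on that library.

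JUN levels in the time course were 154, 143 and 135 TPM in AA, 177, 193 and 165 TPM at 2 Day, 148, 158 and 162 TPM at 3 Day and 214, 206 and 215 TPM at 4 Day. The 2 Day and 4 Day libraries lay above all AA libraries, and the 3 Day libraries overlapped them. The 5 Day libraries held 140.2 TPM, within the range of AA, and 260.2 TPM, the highest of the time course. JUN rose at 2 Day (log2(fold change) 0.45 ± 0.10, edgeR adjusted p = 0.0252), 4 Day (0.59 ± 0.10, adjusted p = 0.00492) and 5 Day (0.57 ± 0.11, adjusted p = 0.0196), and at 3 Day the value was 0.22 ± 0.10 (adjusted p = 0.216). The 2 Day call was lost without 2 Day r2 or any 1 of the AA libraries (0.36 to 0.49, adjusted p = 0.0638 to 0.155). The 5 Day call was lost without 5 Day r3 (0.30, adjusted p = 0.124) or any 1 of the AA libraries (0.54 to 0.61, adjusted p = 0.0534 to 0.0837), and the 4 Day call held in each such case. Between 3 Day and 4 Day, JUN differed by 0.37 ± 0.10 (adjusted p = 0.112), which passed without 5 Day r2 (adjusted p = 0.0296, 1.54% of genes passed) or 5 Day r3 (adjusted p = 0.0302).

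For the agonists, JUN stood at 168, 153 and 145 TPM in water and 219, 247 and 239.8 TPM with SKF82958, without overlap. Quinpirole libraries held 0, 223 and 207 TPM. With all libraries JUN did not pass for SKF82958 (log2(fold change) 0.52 ± 0.91, edgeR adjusted p = 1) or quinpirole (0.00 ± 0.90, adjusted p = 1). Without Quinpirole r1 it rose with SKF82958 by 0.52 ± 0.10 (adjusted p = 0.0251), and for quinpirole the value was 0.53 ± 0.11 (adjusted p = 0.119). The direct difference of the agonists was -0.01 ± 0.11 (adjusted p = 0.998), so their JUN changes were not shown to differ.

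JUND passed in none of the 25 comparisons within experiments. JunD is known to be abundant in resting cells. Its TPM in 1 mM PBS was 609.9, 557 and 604, and in the 1 mM dopamine libraries it ranged from 480.2 to 772, the highest in Acute 24 h r1. The log2(fold change) against PBS was 0.11 ± 0.14 at Acute 1 h, -0.13 ± 0.14 at Acute 24 h, -0.02 ± 0.14 at Chronic 1 h and -0.03 ± 0.14 at Chronic 24 h (edgeR adjusted p = 0.543 to 0.982). Introns took 12.3% to 13.2% of gene reads at Acute 1 h against 19.5% to 21.8% in PBS. With total gene reads, exon and intron reads together, in place of exon reads, JUND passed at Acute 1 h (0.44, edgeR adjusted p = 0.0128). In that fit 12271 genes passed, against 2845 with exon reads. JUND itself held at most 1 intron read in each Acute 1 h and PBS library.

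In the 1 µM experiment JUND spread more, from 255 to 989 TPM. PBS libraries held 938, 407 and 839.6 TPM, Acute 1 h libraries 724, 255 and 889 TPM and Chronic 1 h libraries 871, 373 and 989 TPM. In each of these groups the second library was lowest. Chronic 1 h lay above Acute 1 h in each of the 3 pairs with the same number, but the difference did not pass with the number as a block (0.35 ± 0.13, adjusted p = 0.156). JUND values were 348, 577 and 600.5 TPM at Acute 24 h and 969.7, 976 and 680.4 TPM at Chronic 24 h. The log2(fold change) against PBS ranged from -0.53 ± 0.32 at Acute 24 h (edgeR adjusted p = 0.437) to 0.28 ± 0.32 at Chronic 24 h (adjusted p = 0.868). Without the 3 second libraries JUND fell by 0.72 ± 0.14 at Acute 24 h (adjusted p = 0.00569, 11.4% of genes passed).

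The level of JUND moved with a tilt of the 1 µM libraries against genes rich in G and C. The tilt was measured as the median log2 deviation of the 1828 genes with over 60% G and C minus that of the 2348 genes under 40%. It was -1.72 to -0.87 in the 3 second libraries and -0.49 to 0.38 in the other 12, while JUND ranged from 255 to 407 TPM in the former and from 348 to 989 TPM in the latter. In the other experiments, apart from Quinpirole r1 and 1 mM Acute 24 h r1, the tilt ranged from -0.31 to 0.18 and JUND from 381 to 738 TPM. Of the libraries set apart, 1 mM Acute 24 h r1 had a tilt of -0.41 but JUND at 772 TPM, above that range. Quinpirole r1 had a tilt of -4.01 and JUND at 234 TPM, from 14 reads. JUNB, the other G and C rich member, had its lowest level in the library with the tilt of -1.01, which was a PBS control. At the strongest tilt, -1.72 in Acute 1 h r2, JUNB stood at 43.1 TPM. JUN, with 56.1% G and C, was also lowest in the second library of PBS, Acute 1 h and Chronic 1 h (180, 117 and 121 TPM). The part of the tilt in these levels was not tested.

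**Figure D3:**
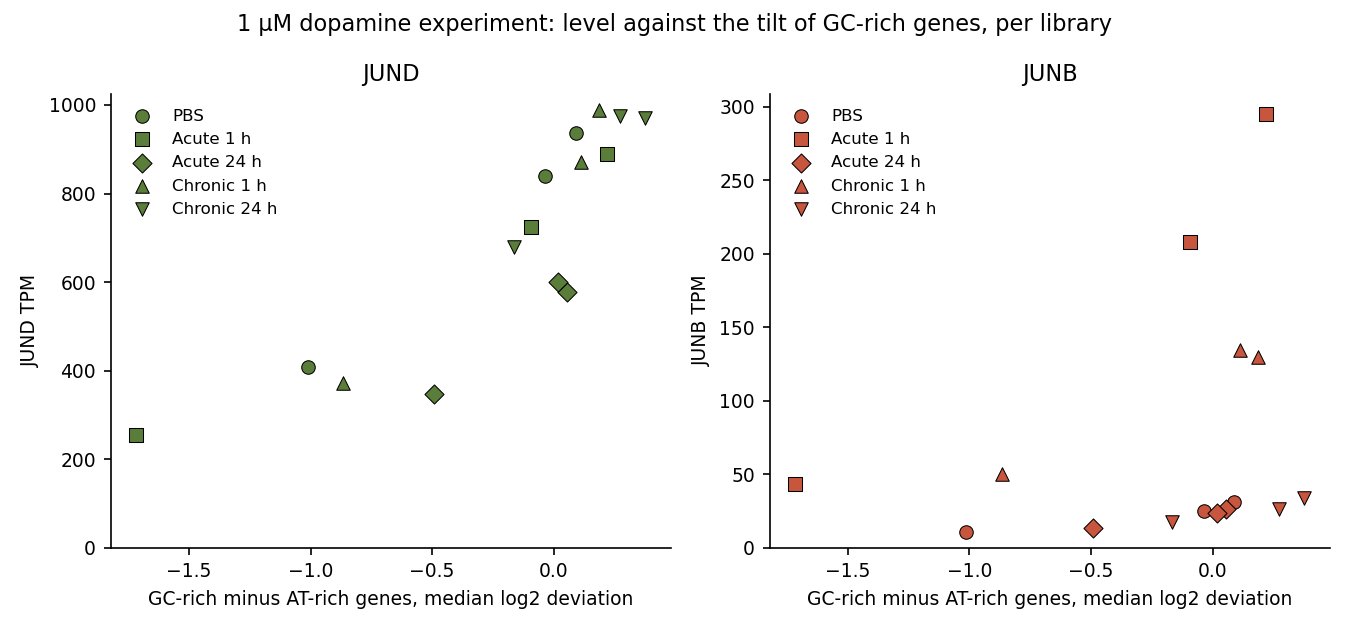
TPM of JUND (left) and JUNB (right) in the 15 libraries of the 1 µM experiment against the tilt of each library, the median log2 deviation of genes rich in G and C minus that of genes poor in them, with a marker shape per condition. The 3 libraries left of -0.8 are the second libraries of PBS, Acute 1 h and Chronic 1 h, with JUND between 255 and 407 TPM.

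JUND in the time course stood at 586, 520.4 and 513 TPM in AA and between 509 and 678 TPM in the 2 Day, 3 Day and 4 Day libraries. The 5 Day libraries held 381 and 738 TPM. The 4 Day libraries (632, 652 and 678 TPM) all lay above AA, with a log2(fold change) of 0.30 ± 0.11 (edgeR adjusted p = 0.13), and the 2 Day value was 0.27 ± 0.11 (adjusted p = 0.19). The 4 Day change passed without 5 Day r2 (0.30 ± 0.08, adjusted p = 0.0335) or 5 Day r3 (0.29, adjusted p = 0.0383). In the agonist experiment JUND was 514, 509 and 499.7 TPM in water, 553, 562 and 492 TPM with SKF82958 and 234, 436 and 552 TPM with quinpirole, the first of these from 14 reads. Without Quinpirole r1 the changes were -0.01 ± 0.07 for SKF82958 (adjusted p = 0.991) and 0.00 ± 0.07 for quinpirole (adjusted p = 0.999).

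Since TPM divides by exon length, the levels of the 3 genes are set side by side here. TPM does not correct for base composition, in which the genes differ, so their order and shares carry that limit. JUND had the highest mean level of the members in every condition except 1 mM Acute 24 h, and JUNB the lowest except at 1 µM Acute 1 h and with SKF82958 and quinpirole. JUND made up 47.8% to 76.6% of the summed TPM of the family in the 51 libraries other than Quinpirole r1 and 1 mM Acute 24 h r1. In 1 mM Acute 24 h r1 it made up 26.3%, and JUN 69.7%. The share of JUNB was 3.27% ± 0.33 (SD, n = 3) in 1 mM PBS and 18.9% ± 1.27 at 1 mM Acute 1 h, and 3.95% ± 0.20 in AA and between 8.72% and 9.71% on average in the groups of the time course. It was highest in the agonist experiment, with 25.2% ± 1.90 for quinpirole without r1 (SD, n = 2, and 27.2% with r1) and 24.5% ± 1.52 for SKF82958. With SKF82958, JUNB (250 ± 7.93 TPM, SD, n = 3) stood level with JUN (236 ± 14.5 TPM).

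**Figure D4:**
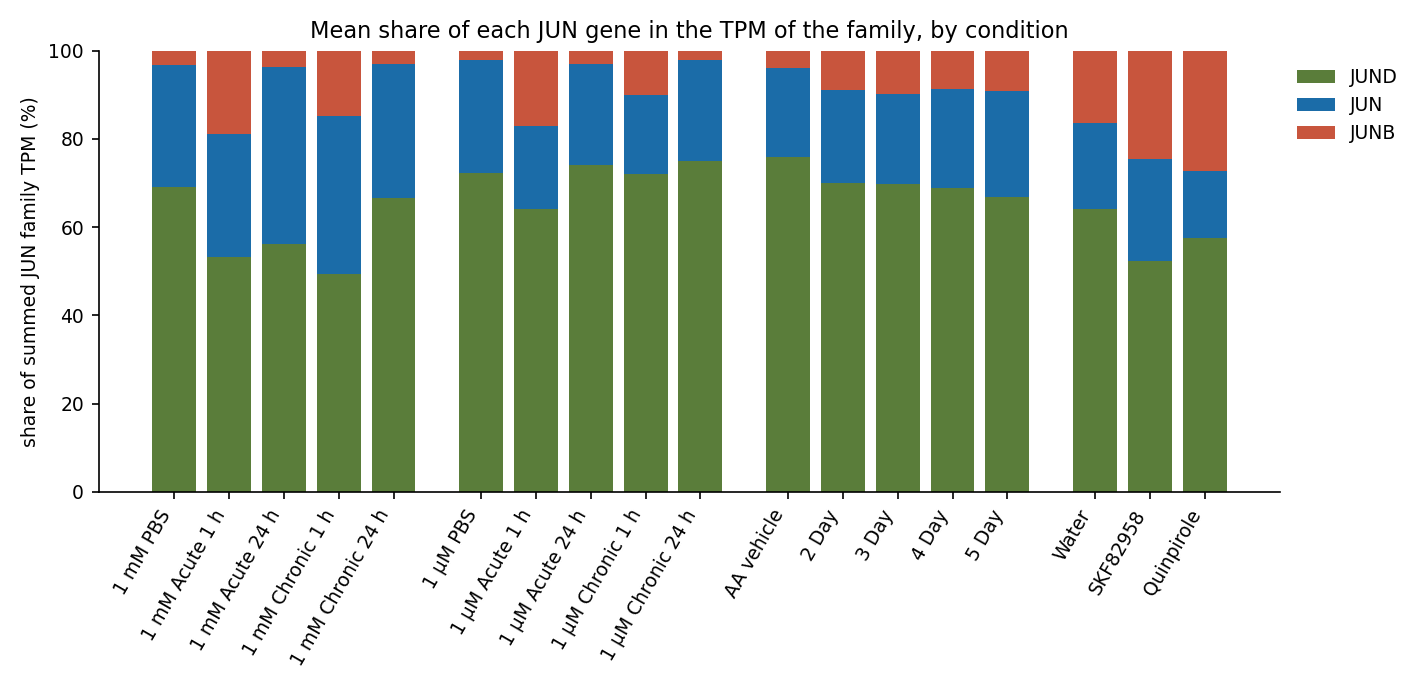
Mean share of JUND, JUN and JUNB in the summed TPM of the 3 genes in each of the 18 conditions, as stacked bars from 0% to 100%. The JUNB segment grew from 3.27% in 1 mM PBS to 18.9% at 1 mM Acute 1 h, and the bars of 1 mM Acute 24 h and Quinpirole include the libraries that stood apart.

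Across the 18 conditions, the mean JUN level ran from 143 TPM (Quinpirole, with r1 at 0) and 144 TPM (AA) to 432 TPM (1 mM Chronic 1 h) and 803 TPM (1 mM Acute 24 h, 181 without r1). Neighbours in the order of JUN overlapped in 15 of 17 pairs, the exceptions being 1 mM Chronic 1 h over 1 mM Acute 1 h and SKF82958 over 4 Day. The mean JUNB level ran from 21.3 TPM at 1 µM Acute 24 h to 250 TPM with SKF82958. Neighbours overlapped in 15 of 17 pairs again, except SKF82958 over 1 mM Acute 1 h and 1 mM Chronic 1 h over water. The mean JUND level ran from 407 TPM (Quinpirole) and 508 TPM (water) to 875 TPM (1 µM Chronic 24 h), and all 17 pairs of neighbours overlapped. Conditions of separate experiments are ordered here without a test.

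The dimer partners of the Jun proteins came from a list of 18 FOS, ATF, MAF and related genes, of which 16 were tested in each experiment. At 1 mM Acute 1 h, 7 partners rose and 1 fell, with a median log2(fold change) of 0.63 against 0.01 over all genes tested, of which 8.04% passed upward. FOSB, FOS and ATF3 rose by 6.77 ± 0.42, 3.98 ± 0.49 and 3.34 ± 0.43 (edgeR adjusted p = 2.41e-06, 0.000282 and 0.0004). FOSL1 (2.41 ± 0.61, adjusted p = 0.0181) and FOSL2 (1.43 ± 0.30, adjusted p = 0.00732) also rose, as did MAF (1.22 ± 0.13, adjusted p = 0.000164). At 1 mM Chronic 1 h, 4 partners rose and 0 fell, namely FOS (3.30), FOSB (3.61), FOSL1 (2.99) and ATF3 (2.22), where 1.27% of all genes passed upward. Without 1 mM Acute 24 h r1 the counts were 10 higher and 2 lower at Acute 1 h, where 39.8% of all genes passed, and 11 higher and 1 lower at Chronic 1 h, where 18.4% passed. FOSB was lower after chronic than after acute dosing (-3.16 ± 0.33, adjusted p = 0.000156), and the value of FOS was -0.69 ± 0.42 (adjusted p = 0.328). Without 1 mM Acute 24 h r1, FOS (-0.67 ± 0.12, adjusted p = 0.000729), ATF3 (-1.11 ± 0.14, adjusted p = 2.96e-05) and FOSL2 (-0.55 ± 0.14, adjusted p = 0.00755) were lower after chronic dosing too. At 1 mM Acute 24 h, 4 partners rose and 0 fell (8.38% of all genes passed upward), but without r1 of that condition 2 rose and 1 fell, where 22.3% of all genes passed.

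At 1 µM Acute 1 h, 6 partners rose and 1 fell (median 0.75 against 0.02 over all genes, of which 3.25% passed upward). FOS rose by 3.53 ± 0.25 (edgeR adjusted p = 2.17e-06), FOSB by 4.39 ± 0.61 (adjusted p = 0.000721), FOSL2 by 2.00 ± 0.25 (adjusted p = 0.000286) and ATF3 by 0.97 ± 0.22 (adjusted p = 0.0191), and ATF7, a partner of the CREB/ATF branch, fell by 1.06 ± 0.15 (adjusted p = 0.000884). At 1 µM Acute 24 h, FOS (-1.12 ± 0.26, adjusted p = 0.0291), FOSL2 (-1.15 ± 0.26, adjusted p = 0.0263) and MAFF (-1.01 ± 0.26, adjusted p = 0.0485) fell, in the comparison in which JUN fell and JUNB did not pass, and 1.91% of all genes passed downward. At 1 µM Chronic 1 h, 4 partners rose and 1 fell (1.75% of all genes passed upward), or 6 and 3 without the 3 second libraries (7.2% passed), and FOS was lower than at Acute 1 h (-1.40 ± 0.22, adjusted p = 0.00799). ATF3 changed more at 1 mM than at 1 µM at Acute 1 h (interaction term 2.39 ± 0.47, adjusted p = 0.00592), which was not found for FOS (0.46 ± 0.52, adjusted p = 0.757) or FOSB (2.36 ± 0.73, adjusted p = 0.0889).

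From 2 Day to 5 Day, 5, 9, 5 and 4 partners rose and 1, 0, 0 and 0 fell, where 1.89%, 4.77%, 2.58% and 1.23% of all genes passed upward. FOS rose by 2.29 to 2.50 (edgeR adjusted p = 1.76e-08 to 2.36e-07), FOSB by 1.95 to 2.66, ATF3 by 0.99 to 1.31 and MAFF by 1.37 to 1.57 in all 4 groups. FOSL2 passed at 2 Day, 3 Day and 4 Day (1.06 to 1.82) and FOSL1 at 3 Day (1.73 ± 0.47, adjusted p = 0.0364). With the agonists 0 of 16 partners passed when all libraries were used, where 0.0124% and 0% of all genes passed. Without Quinpirole r1, 5 rose with SKF82958 and 4 with quinpirole, where 0.624% and 0.184% of all genes passed. ATF3 had values of 1.81 ± 0.24 for SKF82958 and 1.42 ± 0.26 for quinpirole with all libraries (adjusted p = 0.132 and 0.641).

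**Figure D5:**
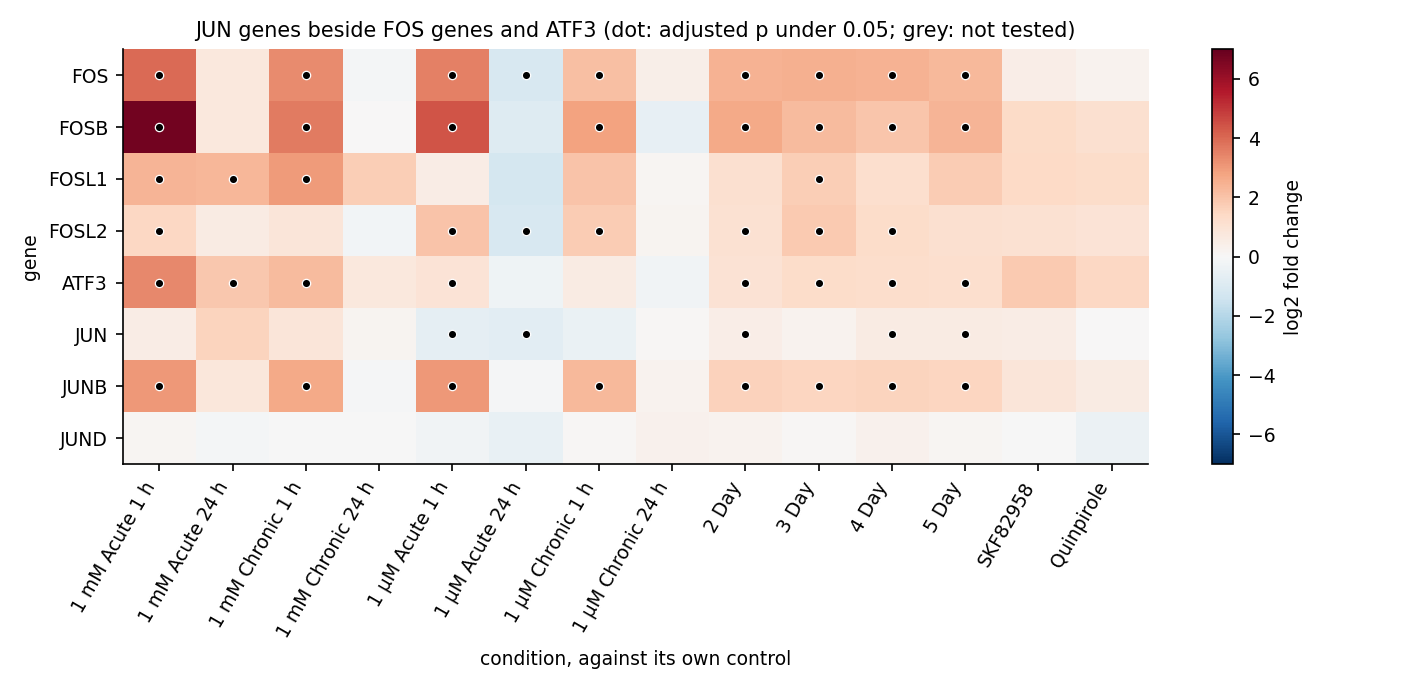
Log2(fold change) of FOS, FOSB, FOSL1, FOSL2, ATF3, JUN, JUNB and JUND (rows) in 14 comparisons with the control of the same experiment (columns), as a colour scale from blue (negative) to red (positive), with a dot where the edgeR adjusted p was under 0.05. FOS passed in 9 comparisons, FOSB, JUNB and ATF3 in 8 each, FOSL2 in 7, JUN in 5, FOSL1 in 4 and JUND in 0.

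The JNK cascade, which phosphorylates JUN, was described by 18 genes, all tested. At 1 mM Acute 1 h, 4 of them fell and 0 rose, namely MAP3K7 (-0.34 ± 0.07, edgeR adjusted p = 0.00779), MAP3K12 (-0.46 ± 0.11, adjusted p = 0.0157), SPAG9 (-0.33 ± 0.09, adjusted p = 0.0214) and MAP2K7 (-0.35 ± 0.10, adjusted p = 0.0277). The first pair are upstream kinases, SPAG9 is a scaffold and MAP2K7 is a kinase that activates JNK. The median of the list was -0.02 against 0.01 over all genes, where 7.94% of genes passed downward. MAP3K7 also fell at 1 mM Chronic 1 h (-0.39 ± 0.07, adjusted p = 0.0166) and MAP3K9 at 1 µM Acute 1 h (-0.47 ± 0.13, adjusted p = 0.0442), each the 1 gene of 18 to pass, where 2.08% and 5.77% of all genes passed. The counts were 1 higher and 4 lower at 1 mM Acute 1 h and 1 higher and 2 lower at Chronic 1 h without 1 mM Acute 24 h r1, where 39.8% and 18.4% of all genes passed. In edgeR, 0 of 18 passed in the time course, where 1.63% to 7.37% of all genes passed, and with the agonists, where 0% to 0.0124% passed. Without 5 Day r2, 1 of 18 passed at 4 Day.

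Of 12 genes for proteins that modify or degrade Jun proteins, USP28, a deubiquitinase that stabilises JUN, fell at 1 mM Acute 1 h (-0.61 ± 0.11, edgeR adjusted p = 0.00279). It also fell in all 4 groups of the time course, by 0.41, 0.31, 0.39 and 0.44 from 2 Day to 5 Day (adjusted p = 0.0206 to 0.048), and was the 1 gene of 12 to pass there, where 3.88%, 7.37%, 4.38% and 1.63% of all genes passed. Without 5 Day r2, 0 of 12 passed at 5 Day. GSK3A, a kinase that marks JUN for degradation, fell at 1 µM Acute 1 h (-0.61 ± 0.16, adjusted p = 0.0381). Of 20 regulators of JUN family transcription, SRF, which binds the CArG box, rose at 1 mM Acute 1 h (1.26 ± 0.12, adjusted p = 0.000109) from 46.1 to 105 TPM, and CREM rose (0.42 ± 0.13, adjusted p = 0.0387). MEF2C, known to bind the JUN promoter in other cells, fell there (-1.43 ± 0.18, adjusted p = 0.000357) and at 1 µM Acute 1 h (-1.38 ± 0.31, adjusted p = 0.0183). ELK4, a partner of SRF, fell at 1 µM Acute 1 h (-0.89 ± 0.19, adjusted p = 0.013), and SRF rose again at 1 mM Chronic 1 h (0.80 ± 0.12, adjusted p = 0.0051).

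Genes known as targets of AP-1 moved in both directions. Of 25 on the list, 19 were tested at 1 mM, where 4 rose and 3 fell at Acute 1 h (median 0.16), against 8.04% and 7.94% of all genes. With 1 mM Acute 24 h r1 left out, 8 of 20 rose and 4 fell, where 39.8% of all genes passed. CCL2, a chemokine gene (2.58 ± 0.48, edgeR adjusted p = 0.00415), CCND1, which encodes cyclin D1 (1.10 ± 0.21, adjusted p = 0.00433), and GJA1, a gap junction gene (1.30 ± 0.28, adjusted p = 0.00797), rose, and VEGFA, a growth factor gene of vessels, fell (-2.67 ± 0.39, adjusted p = 0.00101). At 1 µM, 16 were tested, and at Acute 1 h CCND1 rose (0.84 ± 0.10, adjusted p = 0.000283) while VIM, VEGFA and TGFB1 fell (-1.01, -1.20 and -1.59). In the time course 4, 8, 3 and 1 of 19 rose from 2 Day to 5 Day, against 1.89%, 4.77%, 2.58% and 1.23% of all genes, and 1 fell, VEGFA at 3 Day (-0.80 ± 0.19, adjusted p = 0.0165). At 4 Day, 5 rose without 5 Day r2. MMP1, a collagenase gene, rose in all 4 groups (4.23 to 5.14, adjusted p = 0.000115 to 0.00263). Mesenchymal markers summed to 101.6 to 123 TPM in the AA libraries and to 117 to 308 TPM in the dopamine libraries of the time course, and their part in these changes was not tested.

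The genes whose pattern was most like each member were found from the Pearson correlation over the means of the 18 conditions, centred within each experiment, among 23997 genes. For JUNB these were EGR3 (r = 0.97), FOS (0.97), EGR2 (0.96), EGR1 (0.96) and SIK1B (0.96), with EGR1 to EGR3 encoding zinc finger factors and SIK1B a kinase. Without 1 mM Acute 24 h r1 and Quinpirole r1 the first 4 stayed among the top 5, led by FOS (0.98), and ARC (0.97) took the fifth place. For JUN they were SWI5 (0.94), UBALD1 (0.94), IFFO2 (0.94), IFT140 (0.94) and DUSP16 (0.93), which fell to 0.66 to 0.76 without these 2 libraries. For JUND they were TOMM7 (0.91), PLCD1 (0.91), MARC2 (0.90), F12 (0.89) and ERGIC3 (0.89). Between the members r was 0.09 for JUN and JUNB, 0.69 for JUN and JUND and 0.00 for JUNB and JUND, and 0.35, 0.68 and 0.08 without these 2 libraries. These are descriptions over 18 points that share libraries, depth and base composition.

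Within 50000 bases of the members lay 22 other annotated genes, of which 12 were tested in at least 1 experiment. JUNB lies inside HOOK2, a gene on the opposite strand, and since the strand used in counting is not given, reads of the pair could be mixed. HOOK2 had a median of 14.0 TPM and did not pass in any comparison, with -0.27 ± 0.14 at 1 mM Acute 1 h (edgeR adjusted p = 0.223) and 0.27 ± 0.31 at 1 µM Acute 1 h (adjusted p = 0.701), where JUNB rose. LINC01135, a long noncoding RNA 1081 bases from JUN on the opposite strand, reached at most 1.06 TPM. MIR3188, 455 bases from JUND, was at 0 TPM in all libraries.

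IQCN, the tested gene nearest to JUND, lies 5185 bases from it on the same strand (chr19:18257097-18274509) and rose 1 h after dopamine although JUND did not pass. Its mean level was 1.59 TPM in 1 mM PBS, 3.85 TPM at Acute 1 h (log2(fold change) 1.34 ± 0.31, edgeR adjusted p = 0.0129) and 5.29 TPM at Chronic 1 h (1.68 ± 0.31, adjusted p = 0.0166). At 1 µM it was 0.503 TPM in PBS, 3.88 TPM at Acute 1 h (2.86 ± 0.59, adjusted p = 0.0115) and 3.28 TPM at Chronic 1 h (2.72 ± 0.59, adjusted p = 0.0255). At Chronic 24 h after 1 µM it was 0.532 TPM, below Chronic 1 h (-2.78 ± 0.59, adjusted p = 0.0236). In the time course its mean stayed between 2.84 and 3.25 TPM against 3.00 TPM in AA and did not pass (adjusted p = 0.674 to 0.977). Farther from the members, MAST1 (-0.54 ± 0.10, adjusted p = 0.00465) and AC008397.2 (-1.67 ± 0.46, adjusted p = 0.0265) fell and GET3 (0.41 ± 0.10, adjusted p = 0.0134) rose at 1 mM Acute 1 h.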

How the data were processed

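The RNA-seq data comprised 53 libraries of H9-derived neurons in 18 conditions. The authors trimmed reads, mapped them to GRCh38 with the Ensembl 102 annotation in CLC Genomics Workbench 21.0.5, and deposited a table of 60676 genes per library. The authors' tables give counts of reads on exons, on introns, in total and uniquely mapped, and the deposited TPM divides exon reads by exon length. Which of the sequencing providers was used per library, and the strand used in counting, are not given in the sources used here. The labelled 5 Day r1 library was not analysed here.

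Conditions came from the sample labels. Exon read counts of all groups of an experiment were fitted together with edgeR 4.0.16 in R 4.3.3 (filterByExpr with minimum count 10 and minimum total 15, TMM, glmQLFit, glmQLFTest), with Benjamini-Hochberg adjustment over all genes tested. A change passed at an adjusted p-value under 0.05, and SE is the error of the log2(fold change). The changes at both doses were compared with an interaction term. Exon reads per library ranged from 137051 to 27702963, and 3 reads was taken as the highest count that 0 reads allow, for counting error only. No libraries held identical counts. The test was checked on simulated data.

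The members and gene lists were chosen with earlier results of these data known, so no list was tested as a set. Genes were named by a rule, namely the 3 members, FOS, FOSB, FOSL1, FOSL2 and ATF3, up to 4 genes of a list with the smallest adjusted p in a comparison, the 5 genes most correlated with a member on log2(TPM + 1), and genes within 50000 bases. Alternatives were DESeq2 1.42.0 (Wald test, or its size factors), no filter on low counts, at least 10 reads in every library, total gene reads, uniquely mapped gene reads, only the groups compared, replicate number as a block and each library left out. Added after the data were seen were the fits without the 3 second libraries of 1 µM PBS, Acute 1 h and Chronic 1 h, the counts of the gene lists without the libraries that stood apart, and the likeness without 1 mM Acute 24 h r1 and Quinpirole r1. Labels share replicate numbers, so the deviations of libraries with the same number were correlated for each pair of conditions. All 3 pairs were over 0.1 for 1 µM PBS, Acute 1 h and Chronic 1 h (r = 0.265 to 0.676), whose numbers were taken as pairs from the data, in fits of these 3 groups with and without a block added after the data were seen. This did not hold for other conditions with 3 pairs. Deviations were taken from the mean of each group, and correlations between libraries of different numbers were not examined. Pairing therefore cannot be told apart from the shared deviation of the second libraries, which were low in genes rich in G and C. Figures and tables used Python 3.11.15.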

Additional observations from a re-analysis of the deposited data

How the results depend on the processing

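JUNB kept its direction in every comparison with PBS, AA or water in which it passed, and JUND stayed within 0.72 of 0 on the log2 scale against each control. With only the groups compared in a fit, more calls were made at 1 mM, namely JUN at Acute 1 h (0.49, edgeR adjusted p = 0.000519) and Chronic 1 h (0.83, adjusted p = 3.5e-05) and Chronic 1 h against Acute 1 h for JUN (0.33, adjusted p = 0.000155) and JUNB (-0.36, adjusted p = 0.000582). JUND at 4 Day (0.30, adjusted p = 0.00946) and JUN (0.52, adjusted p = 0.00109) and JUNB (0.86, adjusted p = 8e-06) with SKF82958 then passed too, while JUN (-0.66, adjusted p = 0.177) and JUNB (3.02, adjusted p = 0.0931) at 1 µM Acute 1 h, JUNB at 1 µM Chronic 1 h (2.30, adjusted p = 0.0582) and JUN at 5 Day (0.56, adjusted p = 0.122) did not. That fit has fewer libraries to estimate the spread. With total gene reads, JUND passed at 1 mM Acute 1 h (0.44) and Chronic 1 h against Acute 1 h (-0.45), and JUN (1.85) and JUNB (1.11) at 1 mM Acute 24 h, while JUN was lost at 1 µM Acute 1 h (-0.77, adjusted p = 0.0527), 1 µM Acute 24 h (-0.66), 2 Day (0.46) and 5 Day (0.49). With uniquely mapped gene reads the values were 0.44, -0.42, 1.95 and 1.18 for the gained calls and -0.67, 0.45 and 0.49 for the lost calls at 1 µM Acute 24 h, 2 Day and 5 Day, and JUN at 1 µM Acute 1 h passed. DESeq2's Wald test called JUN at 1 µM Chronic 1 h (-0.48, adjusted p = 0.00779), and without a filter JUND passed at 4 Day (0.28, adjusted p = 0.0198). Leaving out the 3 second libraries at 1 µM added JUND at Acute 24 h (-0.72), JUN at Chronic 1 h (-0.44) and JUNB for Chronic 1 h against Acute 1 h (-0.90). The cause of these changes was not tested. Counts of all genes that passed also moved. At 1 mM Acute 1 h they were 2845 as reported, 12271 with total gene reads, 12109 with uniquely mapped gene reads and 7592 with only the groups compared, and at 1 mM Acute 24 h 2755, 11388, 11977 and 0. At 1 mM Chronic 1 h they were 371 as reported, 1053 with DESeq2's Wald test and 4340 with only the groups compared. At 1 µM Acute 1 h, Acute 24 h and Chronic 1 h they were 954, 547 and 427 as reported, 1770, 1226 and 951 with the Wald test and 52, 329 and 34 with only the groups compared. Without a filter they were 1420, 1920, 1502 and 896 from 2 Day to 5 Day, against 651, 1236, 734 and 274.

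With each library left out in turn, JUN at 1 mM ranged from 0.42 to 0.59 (Acute 1 h), -0.44 to 1.99 (Acute 24 h) and 0.76 to 0.93 (Chronic 1 h), and JUNB from -0.17 to 1.17 (Acute 24 h) and -0.40 to -0.30 (Chronic 1 h against Acute 1 h). At 1 µM, JUN ranged from -0.78 to -0.67 (Acute 24 h) and -0.56 to -0.37 (Chronic 1 h) and JUNB from 2.06 to 2.56 (Chronic 1 h). JUN ranged from 0.36 to 0.51 at 2 Day and 0.30 to 0.78 at 5 Day, and JUND from 0.25 to 0.35 at 4 Day. With the agonists, JUN (0.45 to 0.59) and JUNB (0.80 to 0.97) for SKF82958 and JUNB for quinpirole (0.17 to 0.93) changed their call. The JUN difference of Acute 24 h and Acute 1 h at 1 mM ranged from -0.93 to 1.50 and turned negative without Acute 24 h r1.

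With replicate number as a replicate block over a whole experiment, JUN at 5 Day did not pass (0.55, adjusted p = 0.0516), and no other call on JUN, JUNB or JUND changed. With only 1 µM PBS, Acute 1 h and Chronic 1 h, the replicate block gave JUN at Chronic 1 h a call (-0.47, adjusted p = 0.0239) and 1673, 769 and 559 genes passed at Acute 1 h, Chronic 1 h and between them, against 954, 427 and 199 as reported. Without the block in these groups, JUN at Acute 1 h (-0.66, adjusted p = 0.0742) and JUNB at Chronic 1 h (2.30, adjusted p = 0.135) did not pass, and 232, 37 and 1 genes did. Pairs with the same number correlated above 0.1 in 5 of 30, 16 of 30, 5 of 26 and 1 of 9 cases in the 1 mM, 1 µM, time course and agonist experiments. Depth did not limit the members in 52 libraries, in which 3 reads correspond to at most 1.04 TPM, but in Quinpirole r1 3 reads were 29.7, 52.8 and 50.1 TPM of JUN, JUNB and JUND. A minimum of 10 reads in every library left JUN and JUNB out of the agonist comparisons, and the fits of only the groups compared give no interaction terms.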
